A study of Caenorhabditis elegans with 2 samples.

Results

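The genes of Caenorhabditis elegans that encode translation initiation and elongation factors were examined for binding of the nuclear receptor NHR-6. Members were the protein-coding genes of Ensembl WBcel235 whose symbol begins with eif-, ife-, ifg-, iff-, iftb- or eef-. This gave 39 of the 19973 protein-coding genes on the 6 nuclear chromosomes. Of these, 25 carry an eif- symbol, 6 an eef- symbol, 5 an ife- symbol, 2 an iff- symbol and 1 the symbol ifg-1, while no gene in this annotation has an iftb- symbol.

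The assay was ChIP-seq, in which DNA bound by a protein is precipitated with it and sequenced, here for eGFP-tagged NHR-6 in second-stage (L2) larvae, with males and females pooled and with whole animals as the material. All animals were of strain OP90, genotype unc-119(ed3) III; wgIs90, in which an inserted transgene supplies the tagged receptor. The 2 biological replicates share this genotype and form a single group, so values are set against those of all protein-coding genes and not against a second condition. The tagged copy is additional to the animal's own gene, whole larvae mix all tissues, and neither input DNA nor an untagged strain was among the samples used.

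Protein synthesis begins when the eIF4 factors bring a capped mRNA to a small ribosomal subunit that already carries eIF3 and the initiator tRNA held by eIF2. The exchange factor eIF2B recharges eIF2 with GTP after each round. During elongation eEF1A delivers aminoacyl-tRNAs, the eEF1B complex recharges eEF1A, eEF2 moves the ribosome along, and eIF5A helps it past stalling sequences. NHR-6 belongs to the NR4A group of nuclear receptors, which can bind DNA as monomers at the element AAAGGTCA.

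A gene was called bound where a summit of the authors' optimal peak set, the peaks that passed their reproducibility filter, fell within 1000 bp before or 200 bp after one of its annotated 5′ ends. Of the 39 genes, 14 were bound (35.9%, 95% exact interval 21.2 to 52.8%), against 1186 of all 19973 protein-coding genes (5.94%). The interval covers counting error only, and no test of the difference was made. Each of the 14 genes had exactly 1 optimal summit. Signal that a tagged protein may give at any active promoter was not tested.

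The sequences at the summits of 6 bound genes are shown first, because their peaks span the 3 main kinds of factor found bound and lie on 3 autosomes and the X chromosome. Each line gives a window centred on the summit, read 5′ to 3′ on the strand of the gene, from the RefSeq genome WBcel235 (ce11). Capitals mark matches, on either strand, to CTGCGT in iff-2 and eef-1G, to GAGAGA in both eEF1A genes and to TGACGTCA in eif-2Bepsilon. Windows with such matches are more frequent among these 6 than among all 14 bound genes. The windows are chrII:8561378-8561478 for iff-2 (minus strand), chrIII:6972028-6972128 for eef-1A.1 (minus), chrV:10965657-10965757 for eef-1G (plus), chrX:7823170-7823270 for eef-1A.2 (plus), chrII:14795092-14795192 for eif-3.B (plus) and chrII:8661688-8661788 for eif-2Bepsilon (plus).
iff-2: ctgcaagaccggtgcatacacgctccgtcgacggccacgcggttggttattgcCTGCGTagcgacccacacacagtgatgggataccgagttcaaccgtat
eef-1A.1: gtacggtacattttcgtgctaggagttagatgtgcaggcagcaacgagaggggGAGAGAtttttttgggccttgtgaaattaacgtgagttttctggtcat
eef-1G: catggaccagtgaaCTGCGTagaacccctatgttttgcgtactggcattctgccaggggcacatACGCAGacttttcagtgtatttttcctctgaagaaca
eef-1A.2: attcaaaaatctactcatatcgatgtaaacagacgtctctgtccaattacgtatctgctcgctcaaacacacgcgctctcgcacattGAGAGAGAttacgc
eif-3.B: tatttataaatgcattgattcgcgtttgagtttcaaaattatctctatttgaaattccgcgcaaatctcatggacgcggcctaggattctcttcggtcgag
eif-2Bepsilon: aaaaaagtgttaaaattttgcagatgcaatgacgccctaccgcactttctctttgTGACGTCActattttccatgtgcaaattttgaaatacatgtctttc

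None of the 14 summit windows held the NR4A element AAAGGTCA on either strand, which allows a share of up to 23.2% (95% exact upper limit). Its 6-base core AGGTCA, which is contained in the element, was also in 0 of 14. The element was rare at NHR-6 summits in general, in 5 of the 928 optimal summits at promoters (0.539%) and in the same number of windows 250 bp to their right. AGGTCA was in 26 of the 928 (2.80%). Across the whole promoter window of the outermost 5′ end, 0 of the 39 genes and 774 of 19973 protein-coding genes (3.88%) held AAAGGTCA. These counts say only that the letters were not in those windows.

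Other letter strings occurred at some of the summits. GAGAGA was in 3 of 14 windows, those of eef-1A.1, eef-1A.2 and eif-2Bbeta, against 271 of 928 promoter summits (29.2%) and 71 of the windows 250 bp to the right (7.65%). CTGCGTCT, in 103 of 928 promoter summits (11.1%), was in 0 of 14. Its first 6 bases, CTGCGT, which the longer string contains, were in the windows of iff-2 and, on both strands, eef-1G. Across promoter summits CTGCGT was in 166 (17.9%) and in 25 of the windows to the right (2.69%). The palindrome TGACGTCA, the element of CREB and ATF factors in animals, was in the eif-2Bepsilon window and in 16 of 928 promoter summits (1.72%). CTGCGT and TGACGTCA were picked after the sequences had been read, and each match is a description. The share of G and C in the 14 windows had a median of 46.0% (35.6 to 58.4%), against 45.5% at all promoter summits and 33.7% in the windows to their right.

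Elongation factors and eIF5A supplied 6 of the 14 bound genes, with 6 of 8 bound, and initiation factors the other 8, with 8 of 31 bound. Of the 6 eef genes 5 had an optimal summit, and eef-1B.2 had relaxed summits only. eIF2B had 3 of 5 subunit genes bound, and 4 of the 11 genes with eif-3 symbols were bound. Any genes of these factors that carry other symbols were not counted. In the group of eIF4E, eIF4G and eIF4A3 genes ifg-1 was bound and 6 genes were not. None of the 5 genes with eif-2 symbols outside eIF2B was bound, nor were eif-1, eif-1.A and eif-6. These groups are small, and their differences were not tested.

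**Figure D1:**
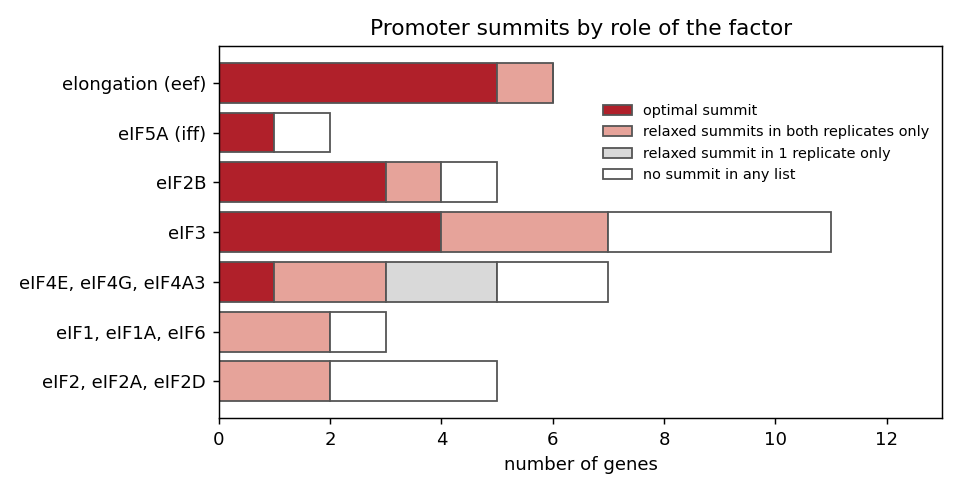
Number of translation factor genes in each role group (horizontal axis, genes) by the kind of summit in their promoter window, with an optimal summit in red, relaxed summits in both replicates in pink, a relaxed summit in 1 replicate in grey and no summit in any list in white. The eef genes are red in 5 of 6 cases, while 4 of 11 eIF3 genes and 3 of the 5 eIF2 group genes have no summit.

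The 5 highest peaks at translation factor genes were those of iff-2 and of 4 eef genes. The signal value of a peak is the authors' own, with no scaling stated, so it is used mainly to rank and describe peaks within a list. At optimal peaks with a summit of both replicates within 100 bp, the pooled signal had a median of 1.00 times the replicates' sum. Replicate 1 supplied a median of 74.3% of that sum, and 70.6% at the members. At iff-2, which encodes eIF5A, the signal was 411.0 pooled (rank 19 of 1662 optimal peaks), 330.4 in replicate 1 (rank 18) and 79.5 in replicate 2 (rank 35). At eef-1A.1, one of 2 genes for eEF1A, it was 287.9 pooled (rank 41), 217.3 in replicate 1 (rank 45) and 71.1 in replicate 2 (rank 48). These peaks were thus near the top of both replicates' lists, each of which holds 30000 candidates.

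At eef-2, the gene for the translocase eEF2, the signal was 257.6 pooled (rank 56), 176.5 in replicate 1 (rank 75) and 80.2 in replicate 2 (rank 32). At eef-1G, which encodes the gamma subunit of the eEF1B exchange complex, it was 228.1 pooled (rank 75), 176.3 in replicate 1 (rank 76) and 56.3 in replicate 2 (rank 88). Together with iff-2 and eef-1A.1, these made 4 genes with a peak among the 100 highest, out of 92 protein-coding genes with such a peak in their window. The peaks of these 4 genes were 155 to 190 bp wide, narrower than most optimal peaks, and 70 of the 100 highest optimal peaks were likewise below the usual width.

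The second eEF1A gene, eef-1A.2 on the X chromosome, was high in 1 replicate and much lower in rank in the other. Its signal was 141.4 pooled (rank 231), 121.1 in replicate 1 (rank 193) and 17.1 in replicate 2 (rank 1596). Both eEF1A genes had a single summit in their window in every list. For eef-1A.1 it lay 366 bp upstream in the pooled list, 376 bp in replicate 1 and 362 bp in replicate 2. For eef-1A.2 it lay 434 bp upstream in the pooled list, 382 bp in replicate 1 and 420 bp in replicate 2. Every 36-base word of both promoter windows occurs once in the genome, so reads of that length could be told apart there although the genes are paralogues.

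The exchange factor genes eef-1B.1 and eef-1B.2 were weaker. At eef-1B.1 the pooled signal was 62.0 (rank 1225) and that of replicate 1 was 61.4 (rank 761), 4 bp from the pooled summit. Replicate 2 had no summit within 100 bp of it. Its highest summit in the window, with a signal of 20.9 (rank 986), lay 726 bp upstream of the 5′ end, while the pooled summit was 4 bp downstream. The highest summits of the replicates at eef-1B.1 were therefore in different places. Replicate 1 also had a weaker summit 813 bp upstream (signal 21.6, rank 6253), within 100 bp of the highest replicate 2 summit. Its other weaker summit, 582 bp upstream (signal 23.6, rank 5035), had none of replicate 2 within 100 bp. The pooled list had a further summit 721 bp upstream (rank 2212). At eef-1B.2 the highest signals were 36.7 pooled (rank 3198), 23.3 in replicate 1 (rank 5163) and 11.3 in replicate 2 (rank 5229), with summits 178, 186 and 150 bp upstream.

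**Figure D2:**
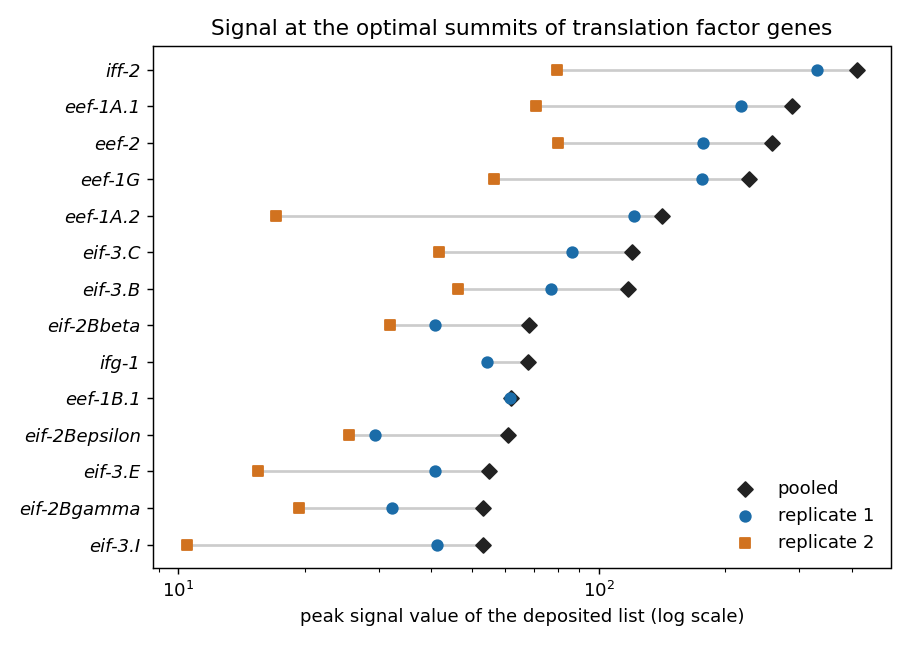
Signal value (horizontal axis, log scale, the authors' values in no stated unit) of the 14 optimal peaks at translation factor genes in the pooled list (black diamonds) and of the summit within 100 bp in replicate 1 (blue circles) and replicate 2 (orange squares). No orange square is drawn for ifg-1 and eef-1B.1, where replicate 2 had no summit within 100 bp, and iff-2 leads with a pooled signal of 411.0. No scaling is stated for the lists. In the 12 genes with both replicates drawn, the pooled signal had a median of 1.00 times the sum of the replicates' signals.

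A pair of eIF3 genes followed the elongation factors. eIF3 is the multisubunit scaffold of the small ribosomal subunit in initiation. At eif-3.C the signal was 120.2 pooled (rank 321), 86.5 in replicate 1 (rank 370) and 41.7 in replicate 2 (rank 186). At eif-3.B it was 117.5 pooled (rank 341), 77.1 in replicate 1 (rank 467) and 46.4 in replicate 2 (rank 149). Both encode core subunits, and both ranked higher in replicate 2 than in replicate 1. The summits lay 243 bp and 262 bp upstream of the 5′ ends and in the window of no other gene.

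The other bound eIF3 genes were near the lower end of the optimal set. At eif-3.E the signal was 54.8 pooled (rank 1538), 40.8 in replicate 1 (rank 1614) and 15.5 in replicate 2 (rank 2049). At eif-3.I it was 53.0 pooled (rank 1634), 41.3 in replicate 1 (rank 1574) and 10.5 in replicate 2 (rank 6490). The lowest optimal peak of all had a signal of 52.6. Of the members without an optimal summit, eif-3.D had the highest pooled signal, at 45.6 (rank 2158). Its signal was 35.8 in replicate 1 (rank 2079) and 13.9 in replicate 2 (rank 2801).

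Relaxed summits without an optimal one were also found at eif-3.H, with a pooled signal of 40.3, and at eif-3.J, with 36. The remaining genes with eif-3 symbols, eif-3.F, eif-3.G, eif-3.K and eif-3.L, had no summit in any list. The promoter of eif-3.L is repeated elsewhere. Of the 36-base words in the window of its outermost 5′ end, 36 of 1166 (3.09%) occur once in the genome, and the others recur in a copy at chrII:5630745-5631945, 7262 bp away. The authors' placing of reads with several matches was not stated, and its part in the empty window was not tested. Of the 39 windows 34 consisted of unique words throughout, and 37 were unique over more than 90% of their words.

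Genes of the exchange factor eIF2B had 3 peaks, all ranking lower than 1000 among pooled peaks, while the eIF2 genes had none. At eif-2Bbeta, which encodes a regulatory subunit, the signal was 68.1 pooled (rank 1031), 40.8 in replicate 1 (rank 1619) and 31.9 in replicate 2 (rank 378). At eif-2Bepsilon, which encodes the catalytic subunit, it was 60.8 pooled (rank 1274), 29.4 in replicate 1 (rank 3038) and 25.5 in replicate 2 (rank 644). At eif-2Bgamma it was 53.1 pooled (rank 1632), 32.2 in replicate 1 (rank 2539) and 19.4 in replicate 2 (rank 1177). All 3 ranked higher in replicate 2 than in replicate 1.

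The eif-2Bgamma summit lay 712 bp upstream of that gene, inside an intron of C15F1.5, the next gene upstream on the same strand. Of the 36-base words in this peak 69.9% were unique, against 100% in the other 13 peaks. The other eIF2B genes, eif-2Bdelta and eif-2Balpha, had no optimal summit. At eif-2Bdelta the highest signals were 32.2 pooled, 27.4 in replicate 1 and 14.8 in replicate 2, and eif-2Balpha had no summit in any list. Among the eIF2 subunit genes, eif-2beta had a highest pooled signal of 37.1 and eif-2gamma one of 30.0, and eif-2alpha had no summit. The genes eif-2A and eif-2D, whose products are not subunits of eIF2, also had none.

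Some eIF4E genes ranked differently in the 2 replicates, as did other members. Of the 11 members without an optimal summit but with summits of both replicates, 8 ranked higher in replicate 2. The ife genes encode 5 forms of the cap-binding protein, and ifg-1 encodes its scaffold eIF4G. At ifg-1 the signal was 67.8 pooled (rank 1038) and 54.4 in replicate 1 (rank 977). Replicate 2 had no summit within 100 bp there, and its only one in the window had a signal of 12.4 (rank 3962). None of the ife genes was bound. At ife-4 replicate 2 had a summit with a signal of 25.6 (rank 632), replicate 1 had none in the window, and the pooled signal was 28.9 (rank 5497).

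At ife-3, the signal was 20.9 in replicate 2 (rank 988), 20.5 in replicate 1 (rank 7225) and 33.5 pooled (rank 3948). At ife-2 it was 19.2 in replicate 2 (rank 1204), 19.3 in replicate 1 (rank 8406) and 40.6 pooled (rank 2646). At eif-6, whose product keeps the ribosomal subunits apart, it was 18.5 in replicate 2 (rank 1297), 20.0 in replicate 1 (rank 7654) and 37.5 pooled (rank 3074). These 4 genes were among the 1662 highest peaks of replicate 2 while in replicate 1 they ranked 7225 or lower, or had no summit in the case of ife-4. Over all protein-coding genes, 1190 (5.96%) had a window holding a summit among the 1662 highest of replicate 2. How many of those lacked an optimal summit is not given here. No translation factor gene without an optimal summit was among the 1662 highest of replicate 1. The optimal peaks were the 1662 highest pooled ones, and replicate 1 supplied a median of 74.3% of the replicates' summed signal there. A gene high only in replicate 2 could thus more easily miss the optimal set. This contrast therefore depends in part on how the set was built and does not describe these genes alone. ife-1 and ife-5 had no summit in any list.

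Of the remaining genes, eif-1 had a highest pooled signal of 34.9 and eif-4A3, a helicase of the exon junction complex, one of 19.6 (rank 14755). eif-1.A, which acts with eif-1 in start codon selection, had no summit. The eIF5A genes stood at opposite ends, since iff-1, known for its role in the proliferation of germ cells, had no summit in any list and iff-2 had the highest peak of all members. The iff-1 promoter window, like that of iff-2, is unique in all its 36-base words.

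In all, 12 of the 39 genes had no summit in any list (30.8%, 95% exact interval 17 to 47.6%), against 41.6% of all protein-coding genes. Another 13 had relaxed summits only. Of all protein-coding genes 41.6% had no summit and 5.94% an optimal one. The rest had relaxed summits only, a larger share than among the members. With weak candidates counted, 25 genes had a relaxed summit of both replicates in the window (64.1%), against 4984 of 19973 (25.0%). With a q-value of 0.01 or less required in each replicate, 12 genes remained (30.8%, 95% exact interval 17 to 47.6%), against 1081 of 19973 (5.41%). All 12 had an optimal summit, and ifg-1 and eif-3.I were the optimal ones left out. With the replicates' summits also required within 100 bp of each other, 11 genes remained (28.2%), against 4.67% of all protein-coding genes.

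**Figure D3:**
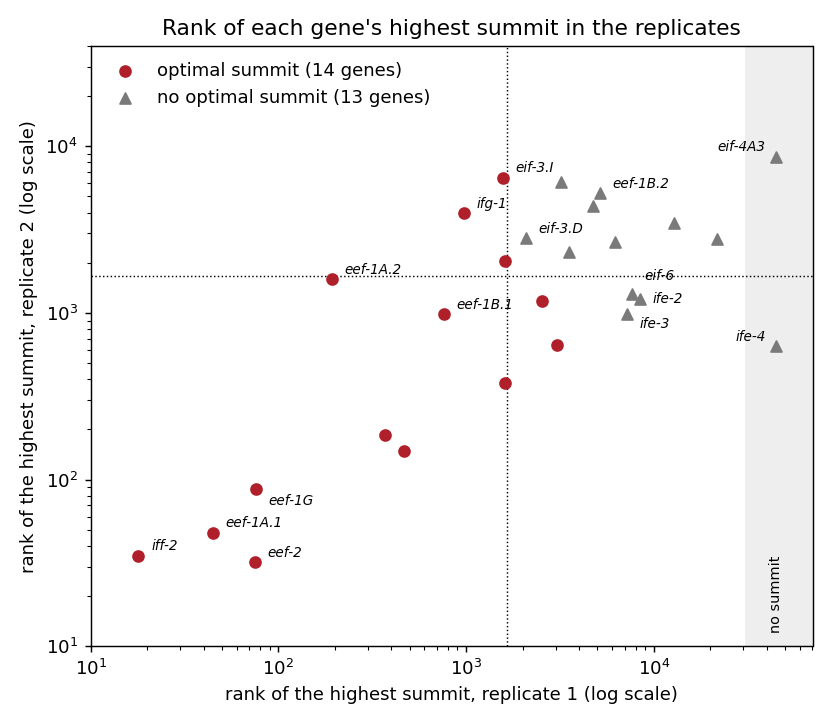
Rank of the highest summit in each gene's promoter window in replicate 1 (horizontal axis) and replicate 2 (vertical axis), both on log scales with 1 as the highest peak, for the 27 genes with a summit in either replicate. Red circles have an optimal summit, grey triangles have none, the grey band holds genes without a summit in replicate 1, and dotted lines mark rank 1662. The genes ife-2, ife-3, ife-4 and eif-6 lie below the horizontal line and to the right of the vertical one.

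Both replicates had a summit near the optimal one about as often in the bound members as over all optimal peaks. In 12 of the 14 genes both replicates had a summit within 100 bp of the optimal one, against 1408 of the 1662 optimal peaks (84.7%). In those 12 the replicates' summits were 4 to 38 bp apart, with a median of 15 bp, against a median of 28 bp over all such peaks. The matching to within 100 bp of the optimal summit limits these distances. At eef-1B.1 and ifg-1 replicate 2 had no summit within 100 bp. Among the 1662 highest peaks of a replicate, 12 of the 14 summits were found in replicate 1, 10 in replicate 2 and 8 in both. No such count over all optimal peaks is given here, so these values describe the 14 summits only. Over the 14 genes the median pooled signal was 92.8, against 83.7 over all bound genes, and it fell into 7 values above 100 and 7 below 70.

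Most summits lay just upstream of the gene. The median distance to the nearest annotated 5′ end was 198 bp, against 250 bp over all bound genes. In 13 of 14 genes the summit was upstream, against 95.4% of bound genes. Summits at eef-2, eef-1G and iff-2 were 11, 12 and 61 bp upstream, and those of ifg-1 and eif-2Bgamma were the farthest, at 627 and 712 bp. Of the 14 summits 10 were outside every annotated gene. The eef-1B.1 summit was in that gene's 5′ UTR and within the non-coding gene F54H12.9, the ifg-1 summit was in the 5′ UTR of M110.3, and the eef-1A.1 summit was within the microRNA gene cel-mir-5549.

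**Figure D4:**
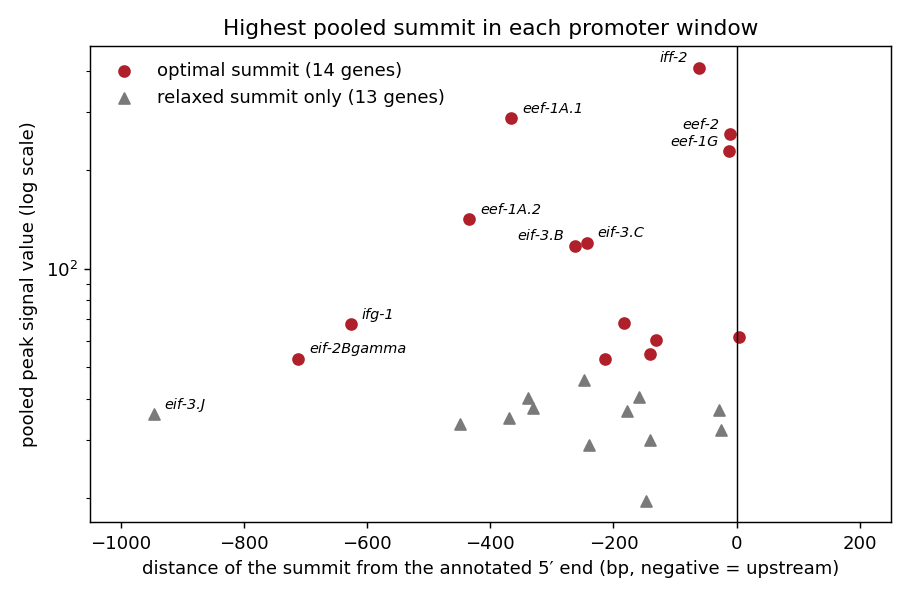
Distance of the highest pooled summit from the annotated 5′ end (horizontal axis, bp, negative upstream) and its pooled signal (vertical axis, log scale) for the 27 translation factor genes with a pooled summit in the window. Red circles are optimal summits and grey triangles relaxed ones. The points at eef-2 and eef-1G sit 11 and 12 bp upstream, and the grey triangles have signals from 19.6 to 45.6.

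Head-to-head gene pairs held most of the peaks. Of the 14 summits 10 (71.4%) were also in the promoter window of a gene on the other strand, against 529 of all 1186 bound genes (44.6%), each taken by its highest optimal summit. This comparison was made after the values were seen, and the difference was not tested. The 5′ ends of these pairs were 157 to 935 bp apart. In 6 pairs the summit was nearer to the translation factor gene. They were eef-2 with clsp-1, eef-1G with ctf-4, eef-1B.1 with aco-2, iff-2 with F54C9.14, eif-3.E with B0511.17 and eif-3.I with abtm-1.

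In the other 4 pairs the partner's 5′ end was nearer. The eef-1A.1 summit was 366 bp from that gene and 175 bp from rfc-4, which encodes a subunit of the clamp loader of DNA replication. The ifg-1 summit was 627 bp from ifg-1 and 21 bp inside the 5′ end of M110.3. The eif-2Bbeta summit was 21 bp from Y47H9C.8 and 183 bp from eif-2Bbeta, and the eif-2Bepsilon summit was 26 bp from piga-1 and 131 bp from eif-2Bepsilon. A peak list cannot assign these summits to 1 gene of the pair.

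Gene arrangement and binding were set side by side, with a rule chosen after the values were seen. A gene had a head-to-head neighbour where the outermost 5′ end of a gene on the other strand lay within 1000 bp upstream. Of the 20 translation factor genes with such a neighbour 10 were bound, against 474 of 3539 among all genes (13.4%). Of the 19 without one 4 were bound (21.1%), namely eef-1A.2, eif-2Bgamma, eif-3.B and eif-3.C, against 712 of 16434 (4.33%). Of these 19 genes 7 began within 500 bp of the end of a same-strand gene, as genes inside worm operons do, and eif-2Bgamma and eif-3.C were the bound ones among the 7. Among all genes so placed 142 of 3618 were bound (3.92%). Operons are not annotated in the gene models used.

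Bound genes were found on 5 of the 6 chromosomes. Chromosome I held 12 members with 5 bound, against 7.78% of all its genes, and chromosome II held 12 with 5 bound, against 5.71%. Chromosome III held 6 with 2 bound, against 9.13%. On V 1 of 4 was bound, against 3.02%, and on X 1 of 3, against 6.70%. Neither of the 2 members on chromosome IV was bound, where the share of all genes was 5.79%.

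Of 47 symbols listed for other genes that act in protein synthesis 41 were found in the annotation. The 6 not found may be other names of annotated genes, members included, and were not counted. Of the 41, 9 had an optimal summit (22.0%, 95% exact interval 10.6 to 37.6%), against 5.94% of all protein-coding genes. The highest was at ifet-1, which encodes an eIF4E-binding repressor of translation, with a pooled signal of 454.1 (rank 15) in a window shared with the ribosomal protein gene rps-1. The others among partners of the eIF4 factors were drr-2, an eIF4H homologue, with 228.6, larp-1 with 209.6, clu-1 with 99.8 and the poly(A)-binding protein gene pab-2 with 71.1. In this group 5 of 10 genes were bound, and pab-1 was not. The GTPase gene rheb-1 of the TOR pathway had a signal of 124.2, and was the only 1 bound of 6 TOR and S6 kinase genes. The ABC-family genes abcf-2 and abcf-3 had 118.6 and 73.4, the 2 bound of 8 termination and recycling genes. At eelo-1, the only 1 bound of 7 elongation regulators and modifiers, the signal was 73.8.

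No summit was found in the optimal set for the 5 mitochondrial factors on the list, the eIF2 kinase genes gcn-2 and pek-1 with gcn-1, or rack-1 and tct-1. Of the 9 bound genes 8 lie on chromosome III, which holds 16 of the 41 and where 9.13% of all genes were bound, the highest share of the 6 chromosomes, and pab-2 is on X. In all of these 8 the summit was in the window of another gene as well. With each summit given to its nearest 5′ end only, 3 of the 41 remained (7.32%), against 4.44% of all protein-coding genes.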

How the data were processed

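ChIP-seq peak lists on build ce11 were used for both replicates, for the replicates pooled and for the optimal set. The deposited file list says that the authors derived a relaxed list per replicate and one for both together, then filtered these to the optimal set by the irreproducible discovery rate. The aligner, peak caller and thresholds were not stated in the sources used. The deposited lists hold a signal value per peak, a score with no stated unit, the −log10 of the q-value (2.81 or more in the optimal set) and the summit's offset. Read depth is unknown. The optimal peaks were the 1662 highest pooled ones.

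Gene models came from Ensembl release 115 and sequence from RefSeq WBcel235, which is ce11, and all peaks lay within its chromosome lengths. Every transcript's 5′ end was used. Exact (Clopper-Pearson) intervals were made with SciPy 1.17.1 under Python 3.11.15. Replicate summits within 100 bp of an optimal one were matched. Unique sequence was measured as 36-base words, since read length is not given. The window assignment was checked on planted summits.

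Members, lists, role groups by symbol and alternatives were chosen with earlier results of these data known. Named genes were every bound member, the 5 highest unbound ones, those without a summit, the paralogue sets and bound pathway genes; values of further unbound members were added after they had been seen. No test across genes was run, and both replicates form 1 group, whose numbers come from the labels. Lists on ce10 were not used.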

Additional observations from a re-analysis of the deposited data

How the results depend on the processing

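The count of 14 bound genes ranged from 10 to 16 over 6 of 7 alternatives and was 7 (17.9%, against 3.43% of all genes) among the 831 highest optimal peaks. It was 12 with the window from 500 bp upstream, 16 with that from 2000 bp, 10 with the nearest 5′ end only and 14 with the outermost 5′ end only. With 1 replicate left out and the 1662 highest peaks of the other used, it was 12 to 15. Without replicate 1, eif-3.E, eif-3.I and ifg-1 were lost and ife-2, ife-3, ife-4 and eif-6 gained, while eif-2Bepsilon and eif-2Bgamma were lost without replicate 2. The nearest 5′ end lost eef-1A.1, eif-2Bbeta, eif-2Bepsilon and ifg-1. Of the 14 genes 6 were bound in all 7 alternatives, namely iff-2, eef-2, eef-1G, eef-1A.2, eif-3.B and eif-3.C. Of the 41 other protein synthesis genes 9 to 10 were bound with 1 replicate left out, 6 with the window from 500 bp upstream and 6 among the 831 highest peaks (14.6% each, against 4.71% and 3.43% of all genes), and 3 with the nearest 5′ end only (7.32% against 4.44%). With each replicate's list taken alone, 25 to 27 translation factor genes had a relaxed summit (64.1 to 69.2%). The share of all genes rose from 25.0% to between 40.1 and 41.2%. With the q-value limit 15 to 17 did (38.5 to 43.6%), and the share of all genes rose from 5.41% to between 8.02 and 9.22%. The element AAAGGTCA was in 0 windows in every alternative. No paired analysis was possible because there is a single group. The unknown depth and missing input limit what the absence of a peak means.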
